A study of Mus musculus with 4 samples.

Results

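The organic anion transporters of the SLC22 family were followed in single nucleus RNA sequencing (snRNA-seq) of mouse kidney cortex. The 8 members were chosen by name as organic anion transporters, the family group that holds the entry route of aristolochic acid into kidney cells. Slc22a6, Slc22a7, Slc22a8, Slc22a12, Slc22a19, Slc22a28 and Slc22a30 had a row, which is 7 members among 19609 gene rows, and Slc22a13 was not analysed here. The 4 male mice, of mixed strain, stood for 1 condition each. The control mouse carried TRE-hKLF6, a transgene for the human transcription factor KLF6 that stays silent without a transactivator, and received no aristolochic acid I (AAI). The control_AAI mouse had the same genotype and AAI. The OE mouse carried CAG-rtTA,TRE-hKLF6, in which the transactivator is driven in all tissues, so that the transgene is not limited to the tubule, and the OE_AAI mouse had this genotype and AAI. All 4 mice ate a doxycycline diet, which switches on the transgene where the transactivator is present. AAI was given as a single injection and kidneys were taken the day after. The labels give no treatment for the mice without AAI, the study's methods name DMSO as the vehicle, and the age of these mice is not given in the sources used here. The human transgene was not analysed here.

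Organic anion transporters move drugs, toxins and metabolites across the plasma membrane of proximal tubule cells. On the blood side, OAT1 (Slc22a6) and OAT3 (Slc22a8) take up organic anions in exchange for dicarboxylates, which Slc13a3 (NaDC3) supplies, and both are known to carry aristolochic acid. OAT2 (Slc22a7) carries organic anions and cyclic nucleotides, URAT1 (Slc22a12) recovers urate on the luminal side, and OAT5 (Slc22a19) is a luminal transporter of rodents. Slc22a28 and Slc22a30 belong to a group of near copies in rodents. Apical efflux pumps such as Abcc2 and Abcc4 complete secretion, Pdzk1 anchors luminal transporters, and the factor HNF4 is a known regulator of tubule transporter genes.

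In the GENCODE annotation of GRCm38, 6 of the 7 members lie on chromosome 19 and Slc22a7 lies on chromosome 17, on the minus strand from 46432183 to 46438457. Slc22a8 spans chromosome 19 from 8591254 to 8611835 and Slc22a6 from 8618039 to 8628299, both on the plus strand, with 6203 bases between them. Slc22a12 (6535845 to 6543032), Slc22a19 (7673061 to 7711310), Slc22a28 (8062209 to 8131982) and Slc22a30 (8335371 to 8405111) lie on the minus strand of the same chromosome. The deposited values count reads over whole genes, and exons took 2.87% of the span of Slc22a28 and 38.8% of that of Slc22a6, so most of the counted span of Slc22a28 is intron. The longest transcripts of Slc22a28 and Slc22a30 were 91.8% identical, and 41.7% of the 50-base windows of the first were found exactly in the second. How reads were divided between these 2 genes is therefore uncertain. Slc22a6 and Slc22a8 were 65.9% identical and shared 0 such windows.

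The 250 bases before the RefSeq start sites of Slc22a28 and Slc22a30 (GRCm38.p6) are shown because they are nearly the same and because the levels of the pair ran together. Of 244 aligned bases, 238 matched, and the windows were shifted by 6 bases against each other. Capitals mark the bases that differed. The windows lie on the minus strand, at chr19:8131983-8132232 for Slc22a28 and at chr19:8405106-8405355 for Slc22a30.
Slc22a28: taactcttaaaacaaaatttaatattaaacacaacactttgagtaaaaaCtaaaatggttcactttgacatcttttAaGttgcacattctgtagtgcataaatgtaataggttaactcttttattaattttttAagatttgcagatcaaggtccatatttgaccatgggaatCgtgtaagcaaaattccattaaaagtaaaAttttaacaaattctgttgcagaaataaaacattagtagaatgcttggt
Slc22a30: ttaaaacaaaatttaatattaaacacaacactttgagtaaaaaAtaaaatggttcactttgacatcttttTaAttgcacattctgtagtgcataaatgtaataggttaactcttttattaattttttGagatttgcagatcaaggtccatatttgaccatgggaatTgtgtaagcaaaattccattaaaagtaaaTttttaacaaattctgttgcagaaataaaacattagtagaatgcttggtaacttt

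The same windows of Slc22a6 (plus strand, chr19:8617746-8617995) and Slc22a8 (plus strand, chr19:8592932-8593181) were far less alike and matched at 131 of 230 aligned bases. The letters CAAAGTCCA, a core bound by HNF4, were searched on both strands and were in 0 of the 6 members with a window and in 0.384% of 32851 windows of the same length. This is a match of letters, and binding was not measured. Letters this rare would hardly be met in so few windows, so their absence tells nothing about HNF4 at these genes.

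The values are mean counts per nucleus on a scale of 10000, for 23 clusters of nuclei in each of the 4 mice, hence 92 columns. The numbers of nuclei and of counts behind a column were not analysed here, so the counting error of a value is unknown. With 1 mouse per condition no test between conditions was possible, and every difference describes these mice. The authors had clustered the nuclei on this same expression. Of 5 normal proximal tubule clusters, 2 belong to the early segments (PT-S1-S2) and 3 to the last segment (PT-S3), and 2 further clusters were named InjuredPT-A and InjuredPT-B. The defining markers were highest under the names given here for podocytes (Nphs1), thick ascending limb (LH-AL, Slc12a1), distal convoluted tubule (DCT, Slc12a3), collecting duct principal cells (CD_PC, Aqp2) and macrophages (Cd74). Scnn1g, another marker listed for CD_PC, was higher in the connecting tubule cluster (CNT, 5.38) than in CD_PC (4.24). The S1-S2 markers Slc5a12 and Slc7a7 were highest in PT-S1-S2-1 and the S3 markers Cyp7b1 and Slc7a13 in PT-S3-2. The injury markers were low, with Havcr1 at most 0.382 and Krt20 at most 0.395, both in InjuredPT-B, and Lcn2 at most 0.0283 in InjuredPT-A. The injury marker Vcam1 was highest in EC-2 (0.607) and not in an injured cluster. Of 3 mesangial markers, only Pdgfrb was highest in the cluster named MC, while Itga8 was highest in the macrophage cluster and Gata3 in CD_PC. The endothelial markers Flt1, Emcn and Pecam1 were highest in EC-2 (22.7, 18.7 and 5.83) and lower in EC-1 (3.80, 2.67 and 1.90) than in the macrophage cluster (6.68, 5.33 and 1.93). EC-1 also held the tubule markers Slc34a1 (32.1) and Slc5a12 (17.3, below only the PT-S1-S2 clusters), so its name goes against its markers. InjuredPT-A without AAI was thinly filled, where 62.6% of gene rows were at 0 for control and 40.8% for OE, against 22.5% and 22.2% in the AAI-treated mice. In InjuredPT-B the shares were 51.3% and 55.7% against 27.0% and 29.7%.

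Slc22a6, the transporter OAT1, was highest on average in InjuredPT-A and not in a normal tubule cluster. Its level there was 3.55 in control, 3.59 in control_AAI, 5.79 in OE and 6.09 in OE_AAI. In the normal cluster with the most, PT-S3-1, the values were 3.10, 2.99, 2.84 and 1.99 in the same order of mice, below InjuredPT-A in each of them. Slc22a6 was lowest of the normal clusters in PT-S3-2, from 0.473 in OE_AAI to 1.17 in OE. The cluster named MC came second of all 23, with 2.56, 2.23, 4.65 and 3.84. None of the 92 columns held a 0 for Slc22a6. Kap, an androgen-regulated kidney transcript that was picked after its values were seen, was also highest in InjuredPT-A (mean of 4 mice 190.7), then in MC (149.6) and in the endothelial cluster EC-2 (123.2), and its part in the values of Slc22a6 was not tested.

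Slc22a8, the transporter OAT3, was highest on average in PT-S1-S2-2, at 3.48 in control, 3.46 in control_AAI, 3.08 in OE and 1.86 in OE_AAI. PT-S3-1 came next with 2.75, 3.63, 2.08 and 2.40, above PT-S1-S2-2 in both AAI-treated mice and below it in both mice without AAI, so that 1 of the 3 S3 clusters ranged with the early segments. The other S3 clusters were far lower. Slc22a8 was between 0.289 and 0.611 in PT-S3-2 and between 0.186 and 1.37 in PT-S3-3, below every value of PT-S1-S2-2.

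Slc22a7 and Slc22a19 were concentrated in PT-S3-2. Slc22a19, the transporter OAT5, was there at 9.04 in control, 7.12 in control_AAI, 6.09 in OE and 2.97 in OE_AAI. Next came PT-S3-3 with 0.868, 3.69, 0.662 and 2.05. In the other 3 normal clusters Slc22a19 stayed between 0.0563 and 0.253 in the 4 mice, so its highest and lowest normal clusters differed 45.0 to 78.1 times within a mouse. Slc22a7, the transporter OAT2, was at 2.46, 1.41, 3.23 and 1.28 in PT-S3-2, at 0.407 to 1.39 in PT-S3-3, and at 0.0664 to 0.339 in the remaining normal clusters. For both genes, PT-S3-2 stood above PT-S3-3 in all 4 mice.

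Slc22a12, Slc22a28 and Slc22a30 were spread over all normal proximal tubule clusters. Slc22a12, the urate transporter URAT1, was highest on average in PT-S3-3, at 2.15 in control, 0.920 in control_AAI, 2.52 in OE and 0.698 in OE_AAI, with both mice without AAI above both AAI-treated mice. Slc22a28 was at 7.85, 6.14, 7.10 and 4.59 in PT-S3-1 and at 3.42, 2.69, 2.81 and 1.08 in PT-S1-S2-1, the lowest normal cluster in every mouse. Slc22a30 was also lowest in PT-S1-S2-1, at 3.12, 2.74, 2.25 and 1.66, and reached 10.5, 10.1, 9.68 and 9.04 in PT-S3-2. Across the 4 mice, which hold the conditions as well, the ranges of neighbours in the order of cluster means overlapped for all 22 neighbour pairs in each of the 7 members, so that single places in the order are not separated.

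**Figure D1:**
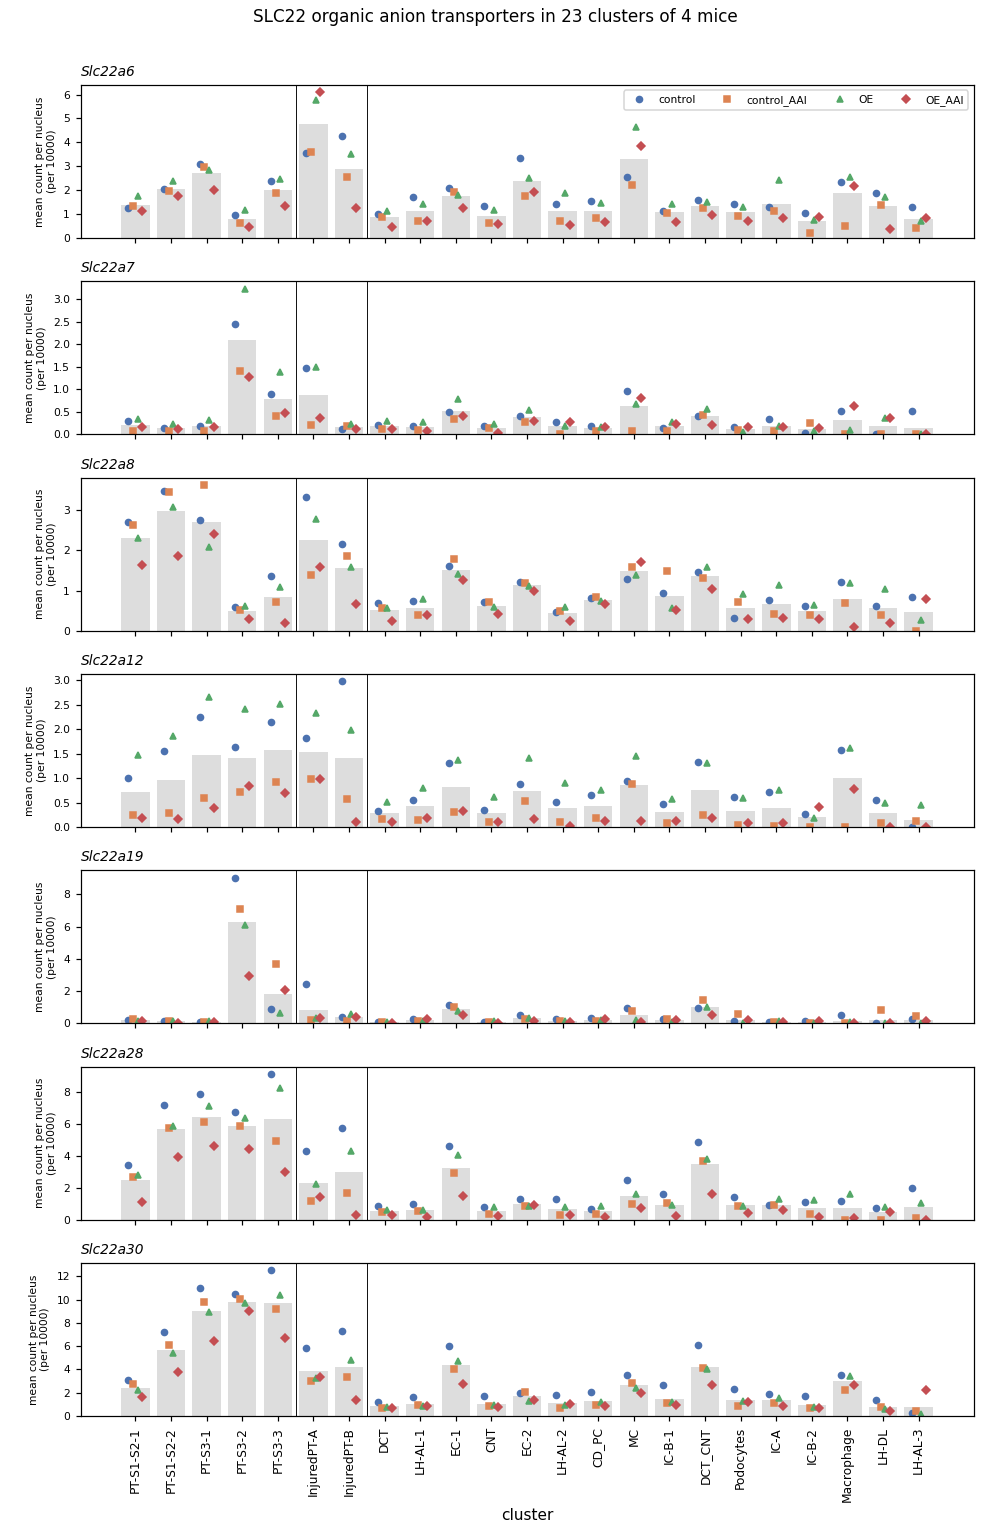
Level of each member (vertical axis, mean count per nucleus on a scale of 10000) in 23 clusters (horizontal axis), with 1 point per mouse and a grey bar for the mean of 4 mice. Vertical lines part the 5 normal proximal tubule clusters, the 2 injured ones and the 16 others, and Slc22a19 stands out in PT-S3-2 at 2.97 to 9.04 while Slc22a6 is highest on average in InjuredPT-A at 3.55 to 6.09.

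The segments of the normal tubule were compared within each mouse, as the mean of the 3 PT-S3 clusters against that of the 2 PT-S1-S2 clusters. A gene was counted from a difference of 0.2 in log2(value + 1), which understates the change of low genes, with the larger value at least 0.5, in all 4 mice. Of the 7 members, 5 were higher in PT-S3 and 1 was lower, while of 3637 genes passing 10.42% were higher and 12.4% lower. The members' median difference was 0.47 to 0.63 in the 4 mice and that of all genes passing was -0.02 to 0.00. Slc22a19 differed most, from 0.177 to 3.34 in control, 0.188 to 3.64 in control_AAI, 0.175 to 2.29 in OE and 0.0885 to 1.70 in OE_AAI, which is 13.2 to 19.3 times as much in S3. Only 10 genes had a larger difference in the control mouse, in which it ranked 11 of 3637. Slc22a7 was 4.40 to 9.27 times as high and Slc22a30 2.19 to 2.73 times as high in S3. In PT-S3-1, however, Slc22a19 was only at 0.0788 to 0.135 and Slc22a7 at 0.0724 to 0.311 in the 4 mice. The differences of these genes thus came from PT-S3-2 and PT-S3-3. Slc22a12 (0.40 to 0.49 on the log2 scale) and Slc22a28 (0.35 to 0.63) were higher by less. Slc22a8 was the member lower in S3, by 1.83 to 2.13 times, and Slc22a6 had no common direction, with log2 differences from -0.12 to 0.24.

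Of 15 other SLC22 genes with a row, 7 passed, 1 was higher in S3 (Slc22a2, an organic cation transporter, 0.27 to 0.59) and 2 were lower. The larger difference was that of Slc22a23, with 7.46 in S1-S2 and 1.73 in S3 of the control mouse. Of 12 genes of organic anion secretion and urate transport outside the family, 10 passed, 3 were higher and 1 was lower. The carrier Slco1a6 was higher by 1.06 to 1.63 on the log2 scale and the apical pump Abcc2 by 0.32 to 1.49. Abcc4 was lower, at 4.57 in S1-S2 and 0.309 in S3 of the control mouse. Slc13a3, Pdzk1 and Hnf4a were not counted in either direction.

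In InjuredPT-A of the AAI-treated mice, OAT1 was higher than in the normal tubule clusters of the same mouse while OAT5 and the Slc22a28 and Slc22a30 pair were lower. Of 6 members passing, 2 were higher and 3 lower in both mice. Of 5008 genes passing, 43.27% were higher and 26.96% lower, so that shares this large are common in this cluster. Slc22a6 was 1.77 in the normal clusters and 3.59 in InjuredPT-A of control_AAI, and 1.35 and 6.09 in OE_AAI, hence 2.03 and 4.52 times as high. In the OE_AAI mouse it ranked 51 from the top of 5008 genes, and in control_AAI 682. Slc22a6 was also higher in InjuredPT-A of both mice without AAI, with 3.55 against 1.96 for control and 5.79 against 2.13 for OE. Slc22a12 was at 0.553 and 0.991 in control_AAI and at 0.452 and 0.985 in OE_AAI.

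The members lower in InjuredPT-A were Slc22a19, Slc22a28 and Slc22a30. Slc22a19 was 2.26 in the normal clusters and 0.238 in InjuredPT-A of control_AAI and 1.06 and 0.324 in OE_AAI. Slc22a28 was 5.07 and 1.17 in control_AAI and 3.41 and 1.41 in OE_AAI. Slc22a30 was 7.59 and 3.01, then 5.52 and 3.35. Slc22a8 had opposite signs, with log2 differences of -0.41 and 0.18, and Slc22a7 failed the filter. The 2 directions among members depended on the normal clusters chosen. Against the PT-S1-S2 clusters alone, where Slc22a19 is scarce, Slc22a19 was not lower (differences of 0.06 and 0.28), and Slc22a30 was higher by 0.23 in OE_AAI. Against the normal clusters of the mouse without AAI, Slc22a12 was lower in InjuredPT-A, by 0.45 on the log2 scale in control_AAI and by 0.68 in OE_AAI.

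Most other genes of the 2 lists that passed the filter were lower in InjuredPT-A, as were 26.96% of all genes passing. Of 15 other SLC22 genes, the 7 that reached the minimum were all lower, with Slc22a5, the carnitine transporter OCTN2, at 1.93 and 0.437 in control_AAI. Of 12 genes of organic anion secretion, 10 reached it, and 9 of them were lower and 0 higher. The exception was the scaffold Slc9a3r1, at 0.873 in the normal clusters and 1.10 in InjuredPT-A of control_AAI and at 0.651 and 0.808 in OE_AAI, and it was not counted in either direction. The lower genes included Slc13a3 (3.82 and 1.59 in control_AAI, 2.92 and 2.04 in OE_AAI), Pdzk1 (6.61 and 1.73, 7.82 and 2.29), Hnf4a (2.44 and 1.04 in control_AAI), Abcc2 (14.9 and 5.15, 16.5 and 6.81) and Abcc4 (1.14 and 0.254, 1.05 and 0.397). Of these 10 genes Slc17a3, a urate carrier, had the lowest difference in both mice, lower by 1.73 and 1.58 on the log2 scale. The endocytic receptor Lrp2 was at 17.7 in normal clusters and 3.45 in InjuredPT-A of control_AAI.

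InjuredPT-B had no higher member. Of 5 members passing, 0 were higher and 3 lower in both AAI-treated mice, while of 4148 genes 23.41% were higher and 13.09% lower. Slc22a28 was at 5.07 in the normal clusters and 1.69 in InjuredPT-B of control_AAI, and at 3.41 and 0.325 in OE_AAI, 3.00 and 10.5 times lower. In OE_AAI only 7 genes of 4148 had a lower difference, which put it at rank 8, and in control_AAI at rank 25. Slc22a30 was 7.59 and 3.33, then 5.52 and 1.42. Slc22a19 was 2.26 and 0.161, then 1.06 and 0.378, ranks 11 and 244 from the bottom. Against the PT-S1-S2 clusters alone the difference of Slc22a19 in OE_AAI was 0.34. Slc22a6 was 1.77 and 2.55 in control_AAI and 1.35 and 1.24 in OE_AAI, and Slc22a8 was 2.19 and 1.86, then 1.28 and 0.678, so neither was counted. Slc22a7 and Slc22a12 did not pass in both mice.

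Among 7 other SLC22 genes passing, 0 were higher and 3 lower in InjuredPT-B (Slc22a4, Slc22a22 and Slc22a23). Against the mean of the PT-S3 clusters alone, Slc22a23 was higher, at 1.54 and 1.98 in control_AAI and at 1.79 and 2.44 in OE_AAI. Among 10 secretion genes, 2 were higher and 6 lower. The higher ones were the apical pumps Abcc2 (14.9 and 21.1 in control_AAI, 16.5 and 19.2 in OE_AAI) and Abcg2 (4.17 and 6.04, 3.50 and 5.03). Both had been lower in InjuredPT-A. Against the mean of the PT-S3 clusters alone, Abcc2 was higher in control_AAI (19.3 and 21.1) and lower in OE_AAI (22.6 and 19.2). Pdzk1 was lower, at 4.03 in control_AAI and 3.25 in OE_AAI, as were Slc13a3 (2.60 and 1.31) and Hnf4a (1.69 and 1.26).

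**Figure D2:**
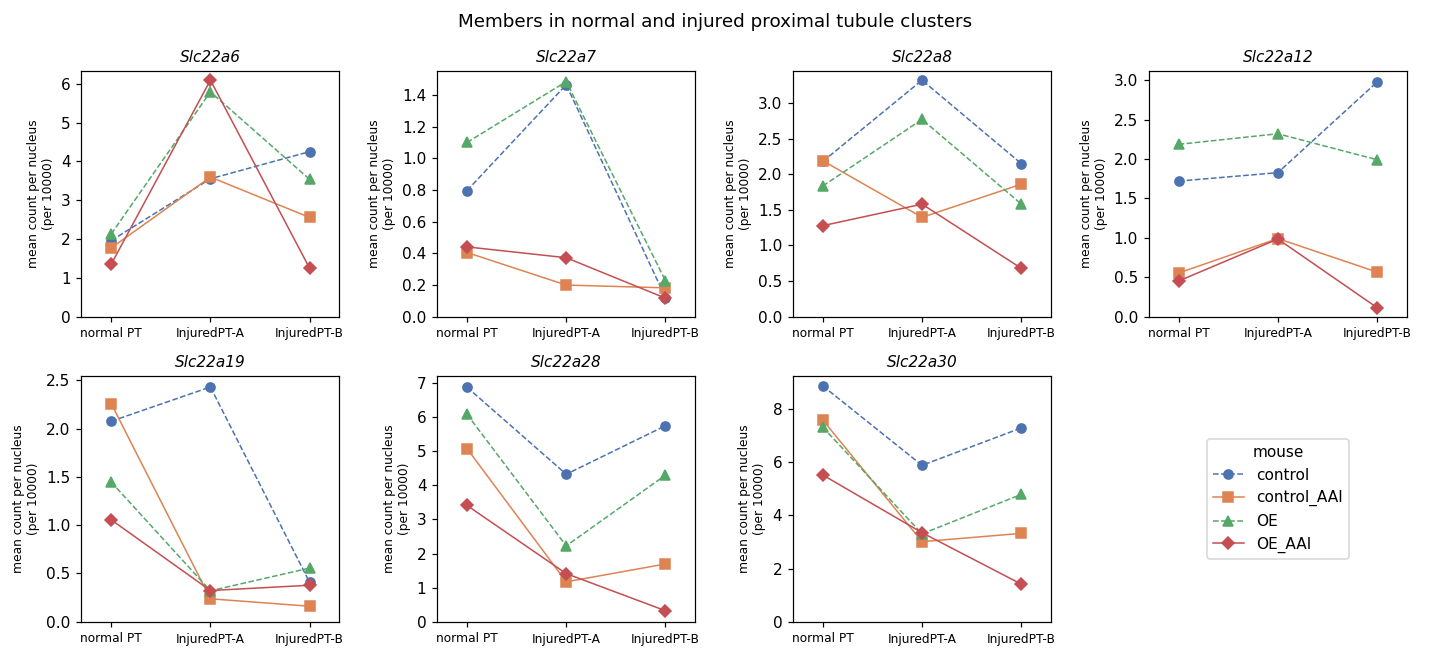
Level of each member (vertical axis, mean count per nucleus on a scale of 10000) averaged over the 5 normal proximal tubule clusters, and in InjuredPT-A and InjuredPT-B (horizontal axis), with 1 line per mouse, dashed without AAI. Slc22a6 lies at 3.55 to 6.09 in InjuredPT-A, above the normal clusters in all 4 mice, while Slc22a28 and Slc22a30 of the AAI-treated mice lie below their normal clusters in both injured clusters.

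AAI was compared with no AAI within each genotype, over the averaged 5 normal clusters of the proximal tubule. In the control genotype 0 members were higher and 4 lower (Slc22a7, Slc22a12, Slc22a28 and Slc22a30), with 11.72% of 4052 genes higher and 11.25% lower. In the OE genotype 0 were higher and 7 of 7 lower, with 19.53% of 4133 genes higher and 15.39% lower. The members' median difference was -0.20 and -0.41, and that of all genes 0.01 and 0.05. Slc22a12, the urate transporter, differed most. Its mean was 1.72 in control and 0.553 in control_AAI, 3.11 times lower, and 2.19 in OE and 0.452 in OE_AAI, 4.84 times lower. It ranked 26 from the bottom of 4052 genes and 20 from the bottom of 4133.

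Slc22a12 was lower with AAI in each of the 5 normal clusters in both genotypes, by 0.61 to 1.03 in the control genotype and by 0.90 to 1.39 in OE on the log2 scale. It was also lower in both injured clusters of both genotypes. Outside the proximal tubule, Slc22a12 lay below the mouse without AAI in 15 of 16 clusters in each genotype. The sodium phosphate transporter Slc34a1, a defining marker of the proximal tubule, was at 58.4 in control and 30.1 in control_AAI and at 45.4 in OE and 29.5 in OE_AAI. It was lower with AAI in all 16 clusters outside the tubule in each genotype. Its part in the values of Slc22a12 was not tested. Of the 16 outside clusters, Slc27a2 lay below the mouse without AAI in 16 in the control genotype and 15 in OE. Lrp2 lay below it in 15 and 13, Cubn in 5 and 5, and Slc5a12 in 6 and 7. These other tubule reference genes had no common direction with AAI in the normal clusters. Cubn was higher in both genotypes (5.18 and 10.2 in control, 5.05 and 7.57 in OE). Lrp2 was lower in the control genotype (21.7 and 17.7) and higher in OE (14.4 and 18.7). Slc5a12 was higher in the control genotype (19.5 and 28.3) and not counted in OE (21.5 and 23.8), where it was lower in PT-S1-S2-1 (55.8 and 44.5) and higher in PT-S3-1 (2.59 and 24.4). Slc27a2 was not counted in either (19.3 and 17.8, 17.3 and 17.97).

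Slc22a28 was 6.87 in control and 5.07 in control_AAI, and 6.08 in OE and 3.41 in OE_AAI, and it was lower in each of the 5 normal clusters in both genotypes. Slc22a30 went from 8.87 to 7.59 and from 7.32 to 5.52, and its difference of -0.20 in the control genotype stood at the threshold. Slc22a7 went from 0.797 to 0.405 and from 1.10 to 0.441. In PT-S3-2, where Slc22a7 is concentrated, it was 2.46 in control and 1.41 in control_AAI, and 3.23 in OE and 1.28 in OE_AAI.

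The basolateral transporters of the control genotype differed little in the mean. Slc22a6 was 1.96 and 1.77, and Slc22a8 2.18 and 2.19. For Slc22a8 the mean joined opposite differences, since it was higher with AAI in PT-S3-1 (2.75 and 3.63) and lower in PT-S3-3 (1.37 and 0.717). In the OE genotype Slc22a6 was 2.13 and 1.35 and lower in 5 of 5 normal clusters, and Slc22a8 was 1.83 and 1.28 and lower in 4 of 5, PT-S3-1 being the exception at 2.08 and 2.40.

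Slc22a19 moved in opposite directions in its 2 clusters. In PT-S3-2 it was 9.04 in control and 7.12 in control_AAI, and 6.09 in OE and 2.97 in OE_AAI. In PT-S3-3 it was 0.868 in control and 3.69 in control_AAI, and 0.662 in OE and 2.05 in OE_AAI. Its mean over the 5 clusters, 2.08 and 2.26 in the control genotype and 1.45 and 1.06 in OE, hides both. PT-S3-3 also had more gene rows at 0 with AAI, 31.3% against 21.5% in the control genotype and 30.4% against 22.2% in OE. So did PT-S3-1, with 24.3% against 15.1% and 27.2% against 15.7%. Slc22a19 in PT-S3-1 was 0.116 in control and 0.109 in control_AAI, and 0.135 in OE and 0.0788 in OE_AAI. Which nuclei the authors' clustering placed in PT-S3-3 with and without AAI cannot be told apart here from a change within them.

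The difference with AAI was lower in the OE than in the control genotype for all 7 members, by 0.15 (Slc22a30) to 0.34 (Slc22a19) on the log2 scale. Of 3892 genes passing in both genotypes, 39.7% were lower in this way, with a median of 0.04 against -0.32 for the members. This difference of differences was not tested. Of the other SLC22 genes, 2 were higher and 3 lower of 8 passing in the control genotype, and 2 higher and 2 lower of 7 in OE. Slc22a22, a prostaglandin transporter, was higher in both (0.828 and 1.26, 0.636 and 0.944) and Slc22a18 lower in both (5.28 and 4.20, 5.06 and 3.94). Of the secretion genes, 3 were higher and 2 lower in each genotype, of 10 passing. The apical pump Abcc2 was higher, from 10.1 to 14.9 and from 7.67 to 16.5, as was the scaffold Pdzk1, from 5.26 to 6.61 and from 5.26 to 7.82. The transcription factor Hnf4a was 3.00 and 2.44 in the control genotype and 2.92 and 2.53 in OE. Abcc4 was lower in the control genotype (2.01 and 1.14) and was 1.08 and 1.05 in OE. Slc9a3r1 had the lowest difference of the list in OE, at 0.997 and 0.651, and was 0.817 and 0.873 in the control genotype. Slc13a3 was 3.81 and 3.82, and 3.66 and 2.92.

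**Figure D3:**
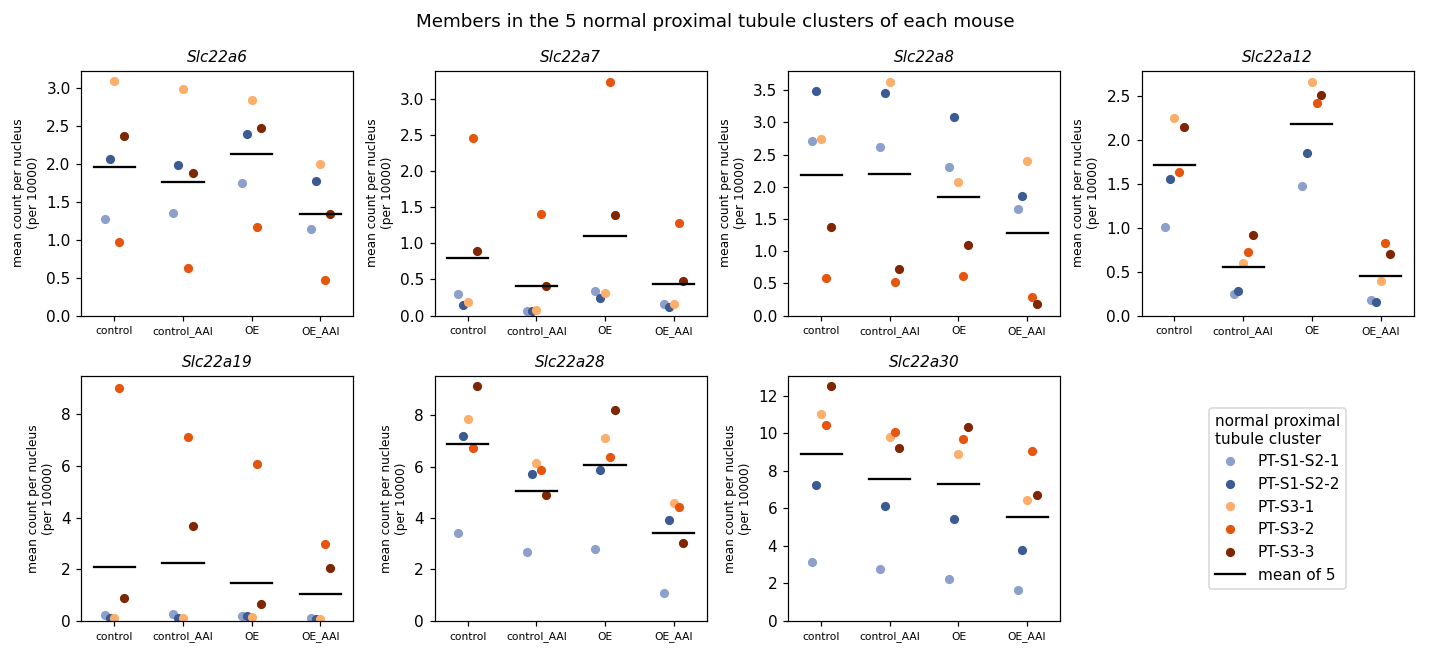
Level of each member (vertical axis, mean count per nucleus on a scale of 10000) in the 5 normal proximal tubule clusters (coloured points) of each of the 4 mice (horizontal axis), with a line for the mean of the 5. Slc22a12 lies lower in both AAI-treated mice in all 5 clusters, with means of 0.553 and 0.452 against 1.72 and 2.19.

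**Figure D4:**
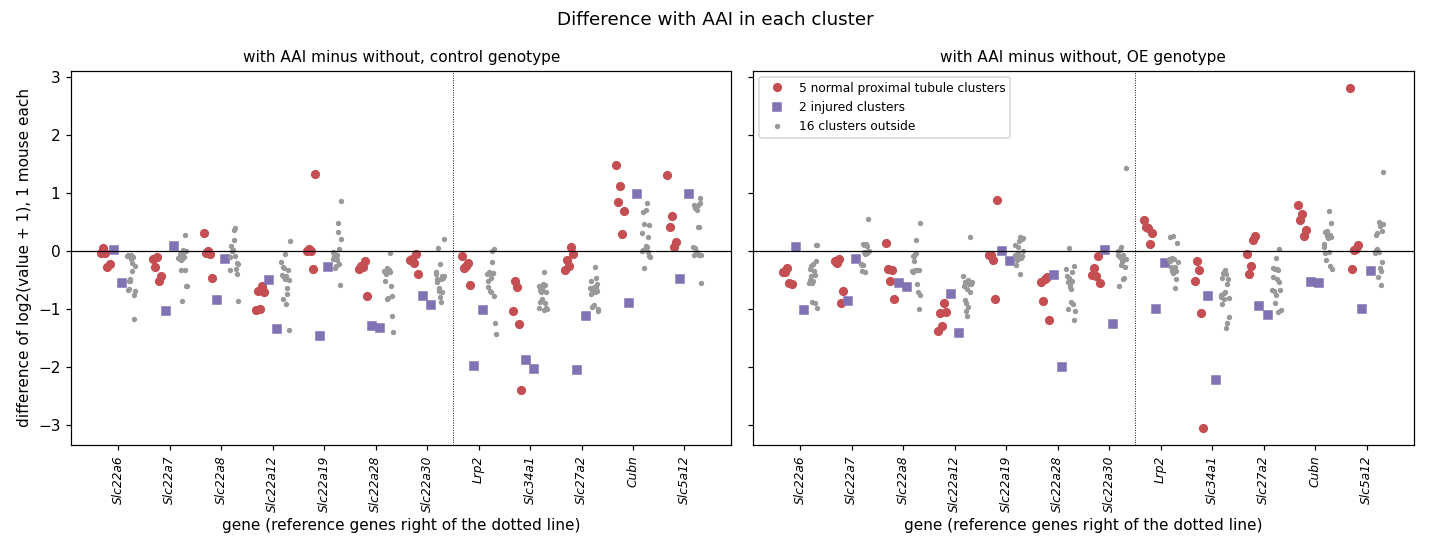
Difference of log2(value + 1) with AAI minus without (vertical axis) in every cluster, for the 7 members and 5 proximal tubule reference genes (horizontal axis), in the control genotype (left) and the OE genotype (right). Points are clusters of 1 mouse against 1 mouse, coloured for the 5 normal, 2 injured and 16 outside clusters, and for Slc22a12 all normal clusters lie between -0.61 and -1.03 on the left and between -0.90 and -1.39 on the right.

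The genotypes were compared without and with AAI. The 4 comparisons of condition share mice, so they are not independent of each other. Without AAI, 2 members were higher in OE than in control (Slc22a7 and Slc22a12) and 2 lower (Slc22a19 and Slc22a30), with 7.845% of 4041 genes higher and 9.329% lower. Slc22a7 was 0.797 in control and 1.10 in OE, and Slc22a12 1.72 and 2.19. Slc22a12 was above control in 5 of 5 normal clusters, as was Slc22a7. Slc22a19 was 2.08 and 1.45, and Slc22a30 was 8.87 and 7.32 and below control in 5 of 5 clusters. With AAI, 0 of 6 members passing were higher and 5 lower (Slc22a6, Slc22a8, Slc22a19, Slc22a28 and Slc22a30), with 6.317% of 3942 genes higher and 7.737% lower. The members' median was -0.43 and that of all genes 0.01.

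With AAI, Slc22a19 differed most between genotypes, at 2.26 in control_AAI and 1.06 in OE_AAI, rank 13 from the bottom of 3942 genes. Slc22a8 was 2.19 and 1.28 and lower in 5 of 5 normal clusters. Slc22a28 was 5.07 and 3.41, also lower in 5 of 5, and so was Slc22a30, at 7.59 and 5.52. Slc22a6 was 1.77 and 1.35, and below control_AAI in 5 of 5 clusters. Slc22a12 was 0.553 and 0.452 and was not counted, and Slc22a7 failed the filter.

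Of other SLC22 genes without AAI, 0 were higher and 1 lower of 7 (Slc22a5, 2.48 and 1.63). With AAI 1 was higher (Slc22a23, 3.33 and 4.07) and 1 lower (Slc22a22, 1.26 and 0.944) of 8. Of 10 secretion genes passing, 0 were higher and 4 lower without AAI, and 1 was higher and 3 lower with it. Slc17a3 was lower in OE both without AAI (9.57 and 6.67) and with it (13.3 and 8.36). Abcc2 was 10.1 and 7.67 without AAI, and 14.9 and 16.5 with it. Pdzk1 was higher with AAI (6.61 and 7.82).

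Every member had values above 0 in clusters outside the proximal tubule. As a share of the normal proximal tubule mean of the same mouse, averaged over 4 mice, the median over the 16 outside clusters was 62.1% for Slc22a6, 33.9% for Slc22a8, 27.9% for Slc22a7, 26.9% for Slc22a12, 17.8% for Slc22a30, 12.3% for Slc22a28 and 11.96% for Slc22a19. For the proximal tubule genes Cubn, Slc5a12, Lrp2, Slc34a1 and Slc27a2 it ran from 15.1% to 25.2%. The shares of Slc22a6 and Slc22a8 were above each of these genes, and those of Slc22a7 and Slc22a12 were above them by little. Slc22a6 was above 100% in 3 of the 16 clusters, at 190.2% in MC, 132% in EC-2 and 107% in the macrophage cluster, whereas the other 6 members exceeded 100% in 0. Kap had a median of 116% and exceeded 100% in 13 of the 16, and its highest shares were in the same 3 clusters, at 275% in MC, 225% in EC-2 and 191% in the macrophage cluster. In the macrophage cluster the share of Slc22a6 was 28.1% in control_AAI, 121% in control, 119.9% in OE and 161% in OE_AAI. The highest outside shares of Slc22a7 and Slc22a8 were also in MC, at 95.2% and 85.4%. That of Slc22a12 was in the macrophage cluster, at 85.1%. In OE_AAI these shares were 182%, 135% and 175%, and in control_AAI 17.5%, 73.0% and 0%. The cluster named EC-1 had the highest share of all 5 reference genes, from 62.4% to 79.1%. EC-1 held 59.0% of the normal level of Slc22a30, and DCT_CNT held 63.1% for Slc22a28 and 58.4% for Slc22a19. RNA from tubule cells in these nuclei and expression in the outside cell types cannot be told apart here. Values of exactly 0 stood in 9 of 92 columns for Slc22a19, 6 for Slc22a7, 5 for Slc22a12, 3 for Slc22a28, 1 for Slc22a8 and 0 for Slc22a30.

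**Figure D5:**
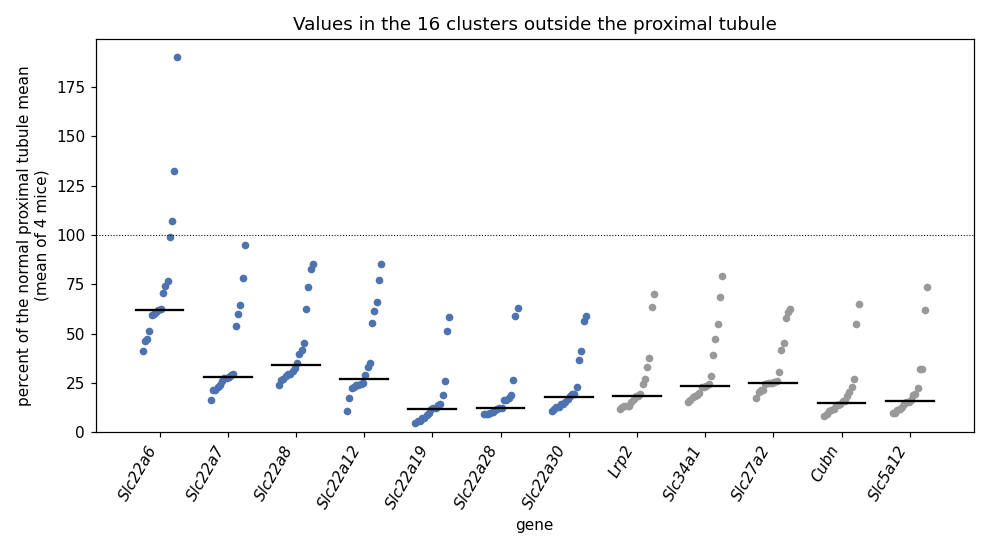
Value in each of the 16 clusters outside the proximal tubule as a percent of the normal proximal tubule mean (vertical axis, mean of 4 mice), for the 7 members (blue) and 5 reference genes (grey) along the horizontal axis, with a line at the median of the 16. The median is 62.1% for Slc22a6 and 15.1% to 25.2% for the reference genes, and the dotted line marks 100%.

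The genes whose log2(value + 1) followed a member most closely were sought among those with a mean of at least 0.5. Columns of a mouse share a library and columns of a cluster share its cell type, so each correlation is a description. Over 92 columns, Slc22a6 was most like Cyp4b1 (Pearson r 0.886), Cyp2e1 (0.789) and Ugt2b38 (0.772), and Slc22a8 was most like Slc34a1 (0.861) and Fam151a (0.852). Slc22a7 was most like Acsm3 (0.769), Slc22a19 (0.738) and the estrogen receptor gene Esr1 (0.734). Slc22a19 was most like Rnf24 (0.880), Mep1b (0.869) and Tet2 (0.842). Slc22a12 was most like Gm10804 (0.849), Ugt3a1 (0.840) and Gm42397 (0.839). Slc22a28 was most like Pecr (0.939), Hsd3b3 (0.921) and Aacs (0.920), and Slc22a30 like Aacs (0.937), Acsm1 (0.936) and Slco1a6 (0.923).

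Over the 20 columns of the normal clusters, Slc22a19 was most like Dkk2 (0.976), Kyat3 (0.967) and Mep1b (0.958), Slc22a30 like Slco1a6 (0.968), Erc2 (0.954) and Acsm1 (0.946), and Slc22a8 like Stxbp5l (0.953) and Enpp6 (0.947). The 3 genes most like Slc22a12 included Nkain2 (0.944) and Gm42397 (0.932), and Slc22a7 was most like Cyp51 (0.943), Slc9a8 (0.929) and Arhgap26 (0.905). Slc22a28 was most like Ddah1 (0.938), Fras1 (0.920) and Ppt2 (0.916), and the 3 genes most like Slc22a6 included Csrp2 (0.900) and Degs2 (0.887). Between members, Slc22a28 and Slc22a30, whose upstream windows nearly match and whose transcripts share stretches of sequence, had r 0.890 over 92 columns and 0.869 over these 20. Slc22a7 and Slc22a19, both concentrated in PT-S3-2, had 0.845 over the 20. Slc22a8 ran against Slc22a19, with r -0.837. Slc22a6 and Slc22a8, which lie next to each other, had 0.671 over 92 columns and 0.644 over the 20.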

How the data were processed

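Nuclei of kidney cortex from 4 mice were profiled with the 10x Chromium system, 1 mouse per condition. The deposited signal values were made by the authors, who aligned and counted with Cell Ranger, using a pre-mRNA reference of mm10, filtered and clustered nuclei in Seurat, and averaged counts scaled to 10000 over the nuclei of each cluster and mouse. The averaging function is not given in the sources used here, and doublet removal was not described for these data. Pre-mRNA counting includes introns, so a value reflects nuclear and unspliced RNA.

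Each of 92 columns summed to 10000. Of 19632 rows, 23 with date-like names were left out. Depth and nuclei per column are unknown, so no interval was given. Cluster names followed the order of the sheets in the study's marker table and were checked on markers. Differences used log2(value + 1), a larger value of at least 0.5 and a threshold of 0.2, and described single mice with no test. The members and lists were chosen with earlier results of these data known. The named genes were all members, Slc13a3, Hnf4a, Pdzk1, Abcc2, Abcc4, genes with the largest rise or fall of each list, and the 3 genes most like each member, and a few that these rules name are not reported here. Kap, Abcg2 and some others of the lists were named after their values were seen. The lists held 18 other SLC22 genes, 15 with a row, and 12 secretion genes, 12 with a row. The method was tested on simulated data, where changes well above the threshold were set into the more abundant genes with little noise. This does not cover members at low levels or differences between mice. Results were recomputed with other settings, namely a pseudocount of 0.1, a minimum of 2 or none, and thresholds of 0.5 and 1. Further settings were median centring, removal of mitochondrially encoded genes and other reference clusters. For the segments and the injured clusters, mice were also left out in turn. Promoter windows came from RefSeq on GRCm38.p6 for 6 of 7 members. Python 3.11.15, numpy 2.4.6, pandas 2.3.3, matplotlib 3.10.9 and biopython 1.88 were used.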

Additional observations from a re-analysis of the deposited data

How the results depend on the processing

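The counts of members called were 6 between segments, 5 in InjuredPT-A, 3 in InjuredPT-B, 4 and 7 with AAI in the control and OE genotypes, and 4 and 5 between genotypes without and with AAI. A pseudocount of 0.1, no filter, median centring, removal of the 13 mitochondrially encoded genes and use of the 3 PT-S3 clusters alone kept each count within 1.5 times. With a minimum of 2 the counts were 2 between segments, 3 in InjuredPT-A, and 2 and 4 with AAI in the control and OE genotypes. With a threshold of 0.5 they were 3 between segments, 1 and 3 with AAI, and 0 and 1 between genotypes without and with AAI. With a threshold of 1 they were 1 between segments, 0 in InjuredPT-A, 1 in InjuredPT-B, 0 and 1 with AAI, and 0 and 0 between genotypes. With PT-S1-S2 clusters only, 3 were called in InjuredPT-A, 2 with AAI in the control genotype and 3 between genotypes with AAI, where fewer members passed the filter. Against the mouse without AAI, 5 were called in InjuredPT-B. With each mouse left out, the counts were 6 to 6 between segments, 5 to 6 in InjuredPT-A and 4 to 4 in InjuredPT-B.

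Turns of direction were counted only for differences called at the main settings. Of 504 member differences recomputed, 391 moved by less than 0.2, 107 by more, and 6 called ones turned direction. Against PT-S1-S2 clusters only, these were Slc22a19 in InjuredPT-A (0.059 in control_AAI and 0.28 in OE_AAI) and in InjuredPT-B of OE_AAI (0.34), and Slc22a30 in InjuredPT-A of OE_AAI (0.23). Against the mouse without AAI, Slc22a12 in InjuredPT-A turned to -0.45 in control_AAI and -0.68 in OE_AAI. No paired analysis was possible because each condition has 1 mouse and no test was made. Unknown numbers of nuclei and counts limit every value, most in the injured clusters without AAI and in the small outside clusters.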
